A study of Mus musculus with 18 samples.

Results

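Mirtrons and other Drosha-independent microRNA (miRNA) loci were followed in mouse adipose-derived stromal cells (ASC) and in extracellular vesicles (EVs) shed by them. The 5 loci were Mir702, Mir877 and Mir3102, which are mirtrons, and Mir320 and Mir484, which are made without Drosha by another route. They were chosen by name, by how their hairpins are made, with earlier results of these data known, out of 2009 listed hairpin loci, and all 5 were among the 245 loci with enough counts to test. Small RNA was sequenced from 18 libraries of 4 groups: EVs of ASC primed with interferon gamma (primed EV, n = 5), EVs of unprimed ASC (naive EV, n = 5), the primed cells (primed ASC, n = 4) and the unprimed cells (naive ASC, n = 4). All came from adult animals of the strain labelled NGL, with adipose as the tissue. Primed cells had interferon gamma for 24 h, and all cells were grown in medium with 2% EV-free serum for 48 h. TRIzol with RNeasy columns gave the cell RNA and a SeraMir kit the EV RNA, so compartment and isolation method cannot be told apart. The labels do not say whether replicates came from separate animals or cultures, so the p-values reflect the spread among these libraries alone, which may be technical. In such bulk libraries, fewer cells or vesicles of a kind and less RNA in each cannot be told apart.

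Most miRNA hairpins are cut out of a longer transcript in the nucleus by Drosha with its partner DGCR8, and Dicer then cuts the exported hairpin into a duplex of mature arms. A mirtron skips the Drosha step, because its hairpin is a short intron that the spliceosome releases and that folds once the lariat has been opened. The hairpins of Mir320 and Mir484 are themselves capped transcripts that begin near a promoter, and Dicer alone cuts them. In all of these the loop-side ends are made by Dicer, while the outer ends are set by splicing or by the start and end of transcription. Vesicles of stromal cells carry miRNAs to other cells, and the counts here are of whole hairpin loci, so the arms are not told apart.

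The mature arms are shown first, since their ends can be read against the splice sites of the host introns. They are given as RefSeq lists them on GRCm38.p6, 5′ to 3′, with the seed (bases 2 to 8, the part that pairs with targets) in capitals.
miR-702-5p: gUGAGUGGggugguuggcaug
miR-702-3p: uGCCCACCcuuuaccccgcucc
miR-877-5p: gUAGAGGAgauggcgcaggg
miR-877-3p: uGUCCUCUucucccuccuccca
miR-3102-5p: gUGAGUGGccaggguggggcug
miR-3102-3p: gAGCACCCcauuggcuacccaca
miR-3102-5p.2: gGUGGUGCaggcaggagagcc
miR-3102-3p.2: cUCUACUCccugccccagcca
miR-484: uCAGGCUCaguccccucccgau
The 9 mature sequences belong to 4 of the loci; Mir320 is named only. Their 8 different seeds include 1 that is shared: miR-702-5p and miR-3102-5p have the seed UGAGUGG and the same first 8 bases. No other of the 1679 mature names in the RefSeq table has this seed, and each of the other 7 seeds occurs once in the table. All 3 mirtron 5p arms at the outer end begin with GU at the first base of the intron.

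The hairpins of Mir702, Mir877 and Mir484 are given next, as RefSeq has them, because they show the contrast between a hairpin that runs past a splice site, one that fills its intron and one that is not an intron. The capitals mark the mature arms.
Mir702: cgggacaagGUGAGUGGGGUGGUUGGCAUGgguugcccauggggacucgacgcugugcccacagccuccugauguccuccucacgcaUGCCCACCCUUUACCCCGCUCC
Mir877: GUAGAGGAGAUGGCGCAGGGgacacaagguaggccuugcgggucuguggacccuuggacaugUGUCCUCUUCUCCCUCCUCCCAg
Mir484: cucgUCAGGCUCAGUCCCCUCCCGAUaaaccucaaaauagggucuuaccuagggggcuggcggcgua
Mir877 (chr17:35960730-35960814, minus strand, GRCm38) is 85 bases long and fills intron 12 of Abcf1, a protein of translation initiation, from end to end. Mir3102 (chr7:100882306-100882409, minus strand) fills a 104-base intron of Arhgef17 in the same way, and it also lies in an exon of a non-coding Arhgef17 transcript that retains this intron. Mir702 (chr5:136991433-136991541, plus strand) covers 9 bases of exon 13 and 100 bases of the 102-base intron 13 of Plod3, a lysyl hydroxylase of collagen, and its 3p arm ends 2 bases before the intron does. Reads of the Plod3 exon in these 9 bases cannot be told from reads of Mir702. Likewise, reads of the transcript that retains the Arhgef17 intron cannot be told from reads of Mir3102. The 3p arms of Mir877 and Mir3102 end 1 base before the end of their introns. Mir3102 has a second pair of arms directly inside the outer one, with miR-3102-5p.2 starting 22 bases into the intron.

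**Figure D1:**
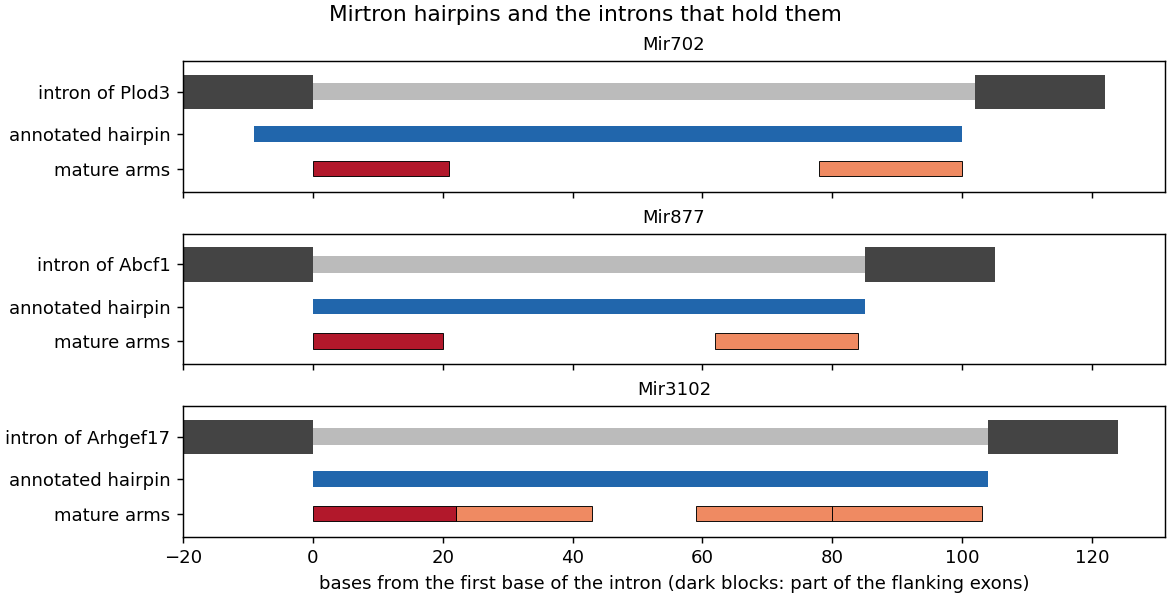
Position of the annotated hairpin (blue) and of the mature arms (dark red for the outer 5p arm, orange for the others) in the introns of Plod3, Abcf1 and Arhgef17; the x axis gives bases from the first intron base, read in the direction of the host gene. Each outer 5p arm starts at base 0, and the Mir702 hairpin reaches 9 bases into the exon before it.

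Mir320 (chr14:70443510-70443591, plus strand, GRCm38, 82 bases) begins 63 bases from the start of the nearest transcript of Polr3d, a subunit of RNA polymerase III that is read from the other strand. Mir484 (chr16:14159626-14159692, plus strand, 67 bases) begins 359 bases from the start of a transcript of Marf1, an RNA regulator known from oocytes, also on the other strand. In another Marf1 transcript 19 bases of the hairpin lie in a non-coding stretch of an exon. Counting was without regard to strand, so reads of that Marf1 exon and of Mir484 cannot be told apart in these 19 bases. The 5 hairpins were GC rich, at 58.2% for Mir484, 61.2% for Mir877, 63.4% for Mir320, 63.5% for Mir3102 and 65.1% for Mir702, against a median of 51.8% over the 211 tested loci with a sequence. By their folding energy per base, computed with RNAfold, they spread widely: Mir320 and Mir3102 folded at -0.56 kcal per mol and base, Mir702 and Mir877 at -0.43 and Mir484 at -0.37, with a median of -0.43 over the same 211 loci.

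Libraries held 180812 to 3052942 counts at 303 to 423 loci. The 5 loci together made up a small share of them, 0.131% ± 0.0107 (SD, n = 5) in primed EVs, 0.165% ± 0.0216 (n = 5) in naive EVs, 0.495% ± 0.122 (n = 4) in primed ASC and 0.461% ± 0.158 (n = 4) in naive ASC. A single locus had 5 to 2391 counts in a library, and the low end was Mir702 in primed EV 1. Levels below are CPM, counts scaled to a common library total, after TMM, a factor from edgeR that centres the log ratios between libraries. Of the 8 tested stromal loci on a marker list of 9, 4 were higher and 2 lower in primed EVs than in primed ASC, and 3 were higher and 2 lower in naive EVs than in naive ASC. This list held 69.4% to 71.5% of counts in primed EVs, 66.8% to 69.9% in naive EVs, 30.4% to 42.0% in primed ASC and 27.4% to 52.5% in naive ASC. All 6 blood and red cell loci were higher in EVs in both comparisons, at 0.147% to 0.625% of counts in primed EVs, 0.361% to 1.49% in naive EVs, 0.00916% to 0.0559% in primed ASC and 0.0128% to 0.0214% in naive ASC. The endothelial Mir126a was higher in EVs in both pairs, at 0.198% to 0.496% of counts in primed EVs, 0.318% to 0.902% in naive EVs, 0.00601% to 0.0592% in primed ASC and 0.0105% to 0.0288% in naive ASC. Of 6 epithelial loci 5 were tested, with 1 higher in the primed and 2 higher in the naive pair, and the liver miRNA Mir122 had too few counts to test, with none in naive ASC. Of 6 annotated loci with sequence like other abundant RNA, 4 were higher and 2 lower in EVs in each pair. The part of these lists in the results below was not tested.

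Per 100 hairpin bases, the order of the levels differed between vesicles and cells at Mir3102. In primed EVs the mean level was 1269 CPM per 100 bases for Mir320, 734 for Mir484, 129 for Mir877, 76.9 for Mir3102 and 21.8 for Mir702. In naive EVs the order was the same, with 1270.1, 748, 149, 76 and 33.0 CPM per 100 bases. In primed ASC Mir3102 stood above Mir877, with 3055 CPM per 100 bases for Mir320, 922 for Mir484, 482 for Mir3102, 303 for Mir877 and 84.5 for Mir702. In naive ASC the same order held at 2282, 800.4, 717, 301 and 100.3 CPM per 100 bases. The place of Mir3102 below Mir484 there came from the division by hairpin length. Without it, Mir3102 averaged 746 CPM and Mir484 536 CPM in naive ASC. Mir320 stood above Mir484 in every library, without overlap in any group. Mir877 and Mir3102 overlapped in both EV groups and in primed ASC, Mir484 and Mir3102 in naive ASC, and Mir702 overlapped its neighbour above it in naive EVs and primed ASC.

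**Figure D2:**
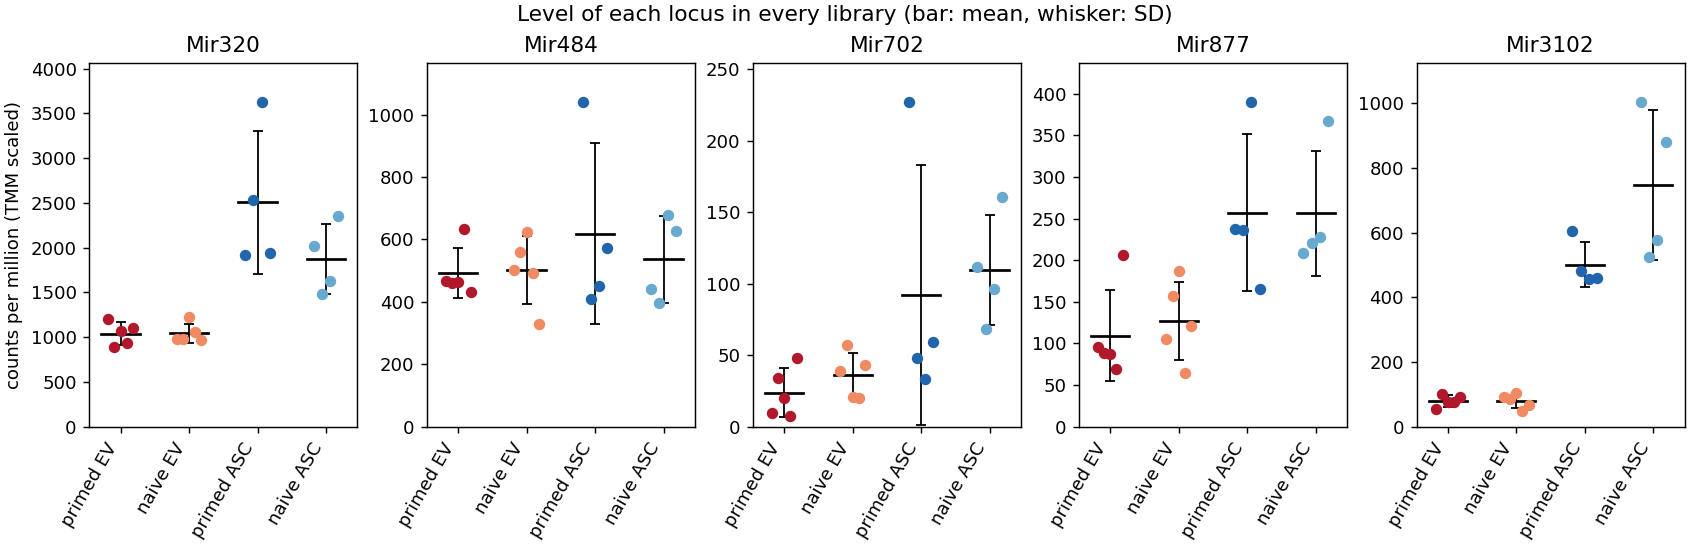
CPM (TMM scaled) of each locus in each library, with a separate linear axis from 0 per locus; the bar is the group mean and the whisker the SD (n = 5 per EV group, n = 4 per ASC group). Mir3102 is under 103 CPM in every EV library and over 456 CPM in every ASC library, while the Mir484 libraries of all groups overlap.

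The first comparison was of vesicles with their parent cells without priming. Of the 5 loci, 4 were lower in naive EVs than in naive ASC and none was higher (quasi-likelihood test of edgeR, adjusted over 245 loci by Benjamini-Hochberg, p under 0.05). Over all tested loci 32.7% were called lower and 33.5% higher. The median log2 fold change was -1.01 over the 5 loci, against -0.24 over all 245. The 4 loci that fell were also the ones whose libraries did not overlap, a pattern that 28.2% of all tested loci had.

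Mir3102 fell furthest of the 5. It had 91.2, 85.5, 103, 48.1 and 67.7 CPM in naive EV 1 to 5, against 1003, 523, 578 and 880.0 CPM in naive ASC 1, 3, 4 and 5. The lowest cell library was thus far above the highest vesicle library. It was 9.34-fold lower in naive EVs (log2 fold change -3.22, SE 0.26, adjusted p = 2.01e-09), and only 3 of the 245 loci had a lower log2 fold change.

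The other mirtrons fell less. Mir702 had 39.2, 57.0, 20.7, 19.9 and 43.0 CPM in naive EV 1 to 5, against 111, 68.6, 96.6 and 160.4 CPM in naive ASC 1, 3, 4 and 5. All vesicle libraries were below all cell libraries, from 12 to 80 counts per vesicle library (log2 fold change -1.60, SE 0.54, adjusted p = 0.0139). Mir877 had 105, 157, 188, 64.7 and 121 CPM in naive EVs, against 209, 220.4, 228 and 368 CPM in naive ASC. Again no library overlapped (log2 fold change -1.01, SE 0.34, adjusted p = 0.0134). Without naive ASC 5, the highest cell library for both, neither was called, Mir702 at -1.20 (adjusted p = 0.0916) and Mir877 at -0.67 (adjusted p = 0.137). With all libraries thinned to the total of the shallowest one, Mir877 was not called at -0.80 (adjusted p = 0.225) and Mir702 was at -2.33 (adjusted p = 0.0239).

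Of the capped hairpins, Mir320 was called lower and Mir484 was not called. Mir320 had 978, 975, 1223, 1059 and 973 CPM in naive EV 1 to 5, against 2015, 1486, 1628 and 2355 CPM in naive ASC 1, 3, 4 and 5. It was lower in every vesicle library (log2 fold change -0.84, SE 0.20, adjusted p = 0.000942). Mir484 had 503, 558, 623, 493 and 329 CPM in naive EVs, against 441, 397, 679 and 628 CPM in naive ASC. The groups overlapped, and the log2 fold change of -0.10 did not pass, with a 95% interval from -0.64 to 0.45 (adjusted p = 0.746). Its sign depended on the scaling, at 0.01 with RLE factors, 0.09 with TMMwsp factors and -0.60 with library totals alone. The difference between the loci was not tested, and the log2 ratio of Mir320 to Mir484 within a library overlapped, with 0.80 to 1.56 in naive EVs and 1.26 to 2.19 in naive ASC.

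In the primed pair the same 4 loci were lower in vesicles, against 32.2% of all tested loci called lower and 35.9% called higher. The median log2 fold change was -1.27 over the 5 loci and 0.02 over all 245. Libraries did not overlap at Mir320 and Mir3102, a pattern of 25.7% of tested loci. The naive and primed comparisons have no library in common, but they are scaled and fitted together.

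Mir3102 had 54.5, 101, 76.9, 75.8 and 91.4 CPM in primed EV 1 to 5, against 606, 481, 456 and 461 CPM in primed ASC 2 to 5. Every cell library was above every vesicle library (log2 fold change -2.64, SE 0.25, adjusted p = 2.75e-08), and the level was 6.23-fold lower in primed EVs. Mir320 had 1204, 891, 1066, 936 and 1106 CPM in primed EVs, against 1913, 2537, 3626 and 1943 CPM in primed ASC. It was lower in every vesicle library (log2 fold change -1.27, SE 0.20, adjusted p = 1.3e-05).

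Mir877 had 95.8, 88.7, 87.1, 69.3 and 206 CPM in primed EV 1 to 5, against 237, 237, 390.0 and 165 CPM in primed ASC 2 to 5. Primed EV 5 stood above primed ASC 5, so the groups overlapped, and the log2 fold change was -1.24 (SE 0.34, adjusted p = 0.0037). Mir702 had 9.39, 33.9, 20.4, 7.58 and 47.8 CPM in primed EVs, against 227, 48.4, 33.2 and 59.6 CPM in primed ASC. Primed ASC 2 was by far the highest library. The log2 fold change was -2.0 (SE 0.56, adjusted p = 0.00356), and without primed ASC 2 it was -1.03 and not called (adjusted p = 0.106). Mir484 had 468, 461, 464, 634 and 432 CPM in primed EVs, against 1040.1, 409, 452 and 571 CPM in primed ASC. These groups overlapped, and the log2 fold change of -0.34 did not pass (95% interval from -0.88 to 0.21, adjusted p = 0.277). Without primed ASC 2, the highest library, it was at -0.01 (adjusted p = 0.967), and with any other primed ASC library left out it was between -0.57 and -0.42 and still not called. The log2 ratio of Mir320 to Mir484 overlapped here too, with 0.56 to 1.36 in primed EVs and 0.88 to 3.00 in primed ASC. After thinning to the shallowest library, Mir877 was at -1.26 and just missed the threshold (adjusted p = 0.0506), while Mir702 was at -3.05 and Mir3102 at -3.50, both called.

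The scaling of the libraries moved all loci together. When libraries were scaled by their totals alone, the all-locus median stood at -0.69 in the primed and -0.70 in the naive pair, and Mir484 passed in the primed pair at -1.05 (adjusted p = 0.00186). In the naive pair Mir484 was then at -0.60 and just missed the threshold (adjusted p = 0.0514). The split over all loci was then 58 higher and 118 lower in the primed pair and 65 higher and 116 lower in the naive pair, against 88 and 79 and 82 and 80 with TMM. Relative to the all-locus median, Mir484 was at -0.36 in the primed and 0.10 in the naive pair with totals alone, and at -0.35 and 0.14 with TMM. Mir3102 was at -2.63 in the primed and -3.02 in the naive pair with totals alone, and at -2.65 and -2.99 with TMM.

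**Figure D3:**
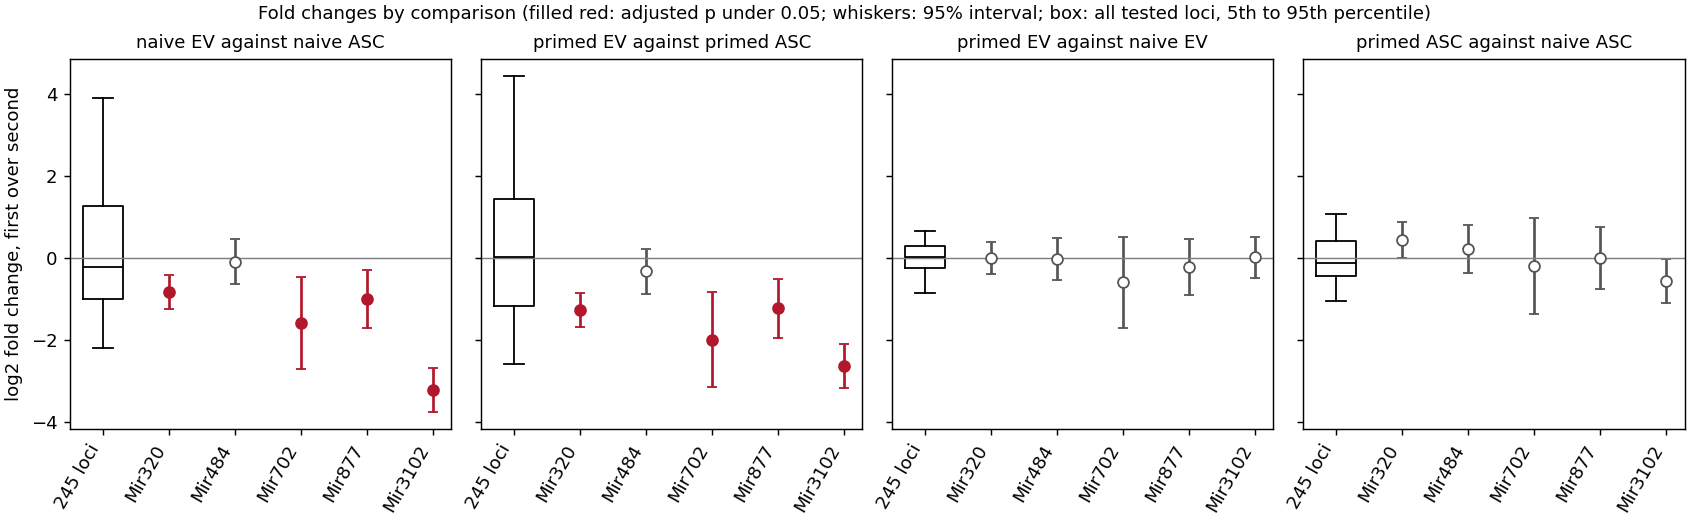
Log2 fold change (first group over second) of each locus in the 4 comparisons, with its 95% interval; filled red points have an adjusted p under 0.05, and the box at the left of each panel gives the quartiles of all 245 tested loci with whiskers to the 5th and 95th percentile. In both panels of EV against ASC, 4 of 5 intervals lie wholly below 0, and in the primed against naive EV panel every interval spans 0.

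Hairpin GC content moved with the EV difference. Across the 211 tested loci with a sequence, the log2 fold change of EVs over ASC fell by 0.66 per 10 points of GC in the primed pair (Pearson r = -0.30) and by 0.41 in the naive pair (r = -0.19). This is a description across loci of the same libraries. The 53 loci of the upper GC quartile, which hold 4 of the 5 loci and not Mir484, had a median log2 fold change of -1.17 in the primed and -0.87 in the naive pair, against 0.19 and -0.05 for the others. At its own GC content the trend line stood at -0.38 for Mir3102 in the primed pair and at -0.10 in the naive pair. The height of the line also holds the general level of all loci, so these values are not the shift on removal of the trend. With the trend on GC removed in each library, Mir320 and Mir3102 were still called in the primed pair, at -0.50 (adjusted p = 0.0141) and -1.90 (adjusted p = 5.8e-07). Mir702 at -1.19 (adjusted p = 0.0541) and Mir877 at -0.64 (adjusted p = 0.0847) were not. In the naive pair only Mir3102 was still called among the 5, at -2.73 (adjusted p = 5.84e-09). Mir320 was at -0.37 (adjusted p = 0.0629), Mir702 at -1.02 (adjusted p = 0.0922) and Mir877 at -0.63 (adjusted p = 0.0833). Without the removal Mir3102 was at -2.64 in the primed and -3.22 in the naive pair.

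**Figure D4:**
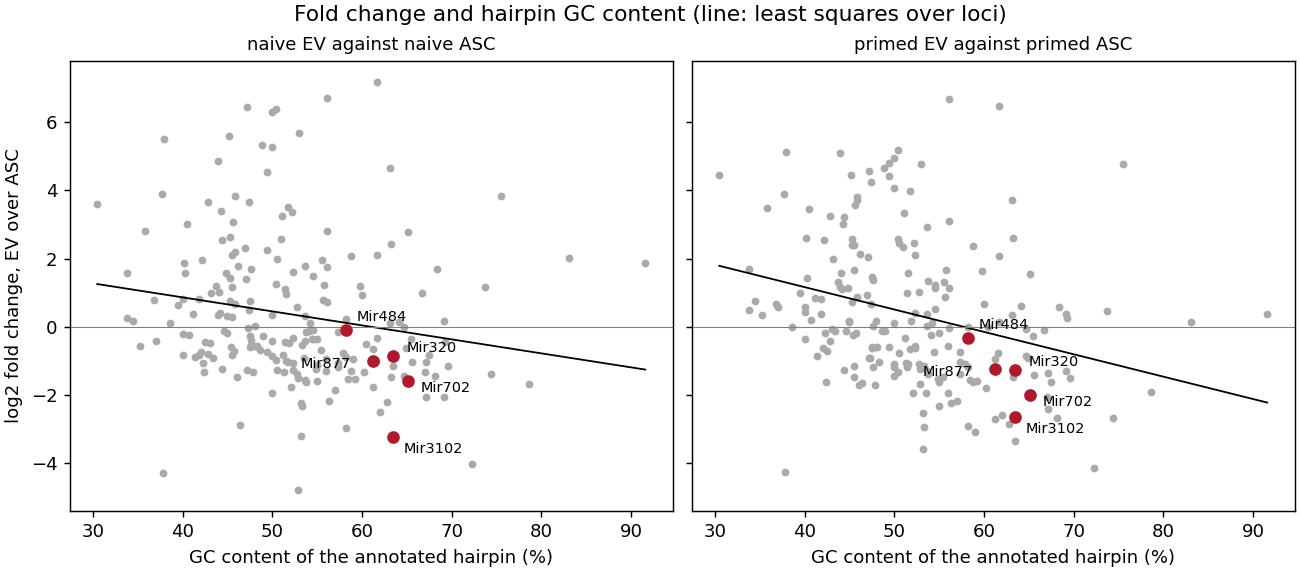
GC content of the annotated hairpin (%) against the log2 fold change of EVs over ASC for the tested loci with a sequence (grey) and the 5 loci (red); the line is a least squares fit over all points. The 5 loci lie between 58.2% and 65.1% GC, and Mir3102 lies farthest below the line of the 5 in both panels.

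Ratios between the loci within a library need no scaling between libraries. The log2 ratio of Mir484 to Mir3102 counts was 2.63 ± 0.43 in primed EVs (SD, n = 5) and 0.21 ± 0.44 in primed ASC (n = 4), and 2.67 ± 0.40 in naive EVs (n = 5) and -0.46 ± 0.58 in naive ASC (n = 4). The mean log2 ratio of Mir877 to Mir3102 had opposite signs in the compartments, with 0.36 ± 0.59 in primed EVs and -1.02 ± 0.56 in primed ASC, and 0.64 ± 0.31 in naive EVs and -1.53 ± 0.49 in naive ASC. For Mir320 over Mir3102 the log2 ratio was 3.71 ± 0.47 in primed EVs and 2.28 ± 0.56 in primed ASC, and 3.75 ± 0.41 in naive EVs and 1.36 ± 0.24 in naive ASC. In none of these did EV and ASC libraries overlap. Of the 10 pairs among the 5 loci, 3 did not overlap between primed EVs and primed ASC and 5 did not between naive EVs and naive ASC. Over all 29890 pairs of tested loci the shares were 50.7% and 53.4%, so a pair without overlap was no rarer among all loci. For Mir320 over Mir877 the groups overlapped in both pairs, with 3.35 ± 0.54 in primed EVs and 3.30 ± 0.24 in primed ASC, and 3.11 ± 0.56 in naive EVs and 2.88 ± 0.26 in naive ASC.

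**Figure D5:**
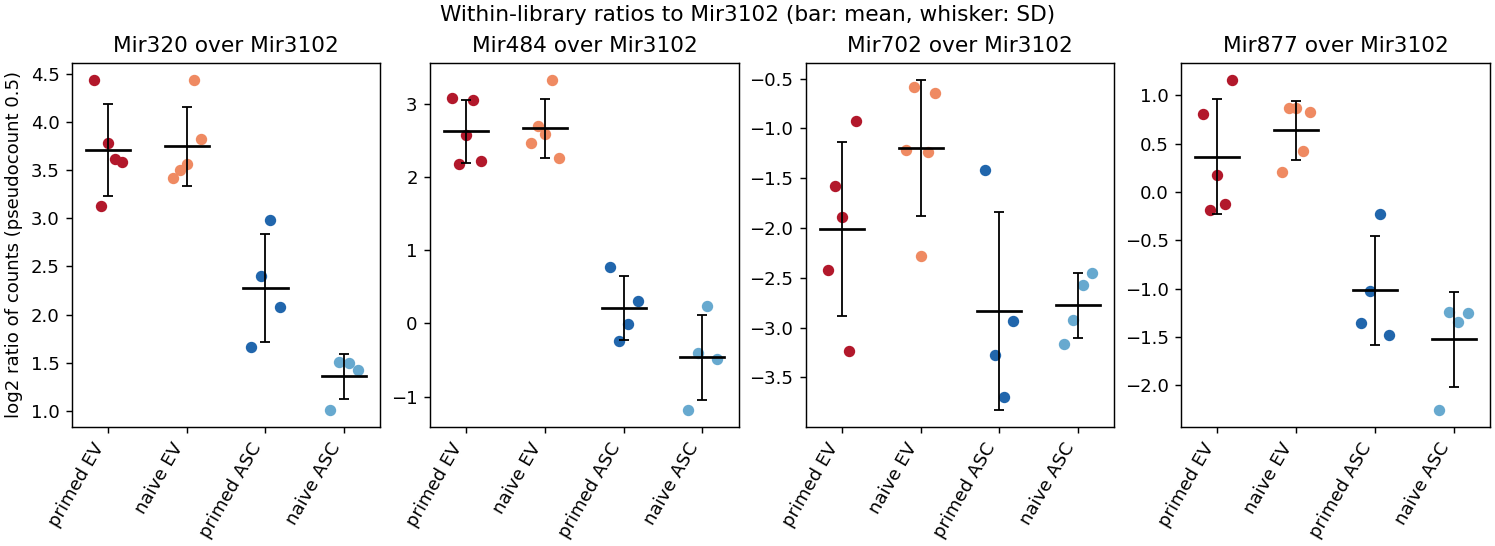
Log2 ratio of the counts of 4 loci to those of Mir3102 in each library (pseudocount 0.5), by group, with mean (bar) and SD (whisker). For Mir320, Mir484 and Mir877 the EV libraries lie above the ASC libraries of the same priming, and for Mir702 the primed groups overlap.

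The next comparison asked how vesicles of primed and unprimed cells differ. In primed against naive EVs none of the 5 loci was called, and none had an unadjusted p under 0.05; over all loci 0.816% were called and 25 of 245 had such a p. DESeq2 and limma-voom called none of the 5 either. No locus of the 5 parted the groups without overlap, as 2.45% of all loci did. The log2 fold changes were 0.00 for Mir320 (95% interval -0.39 to 0.39), -0.03 for Mir484 (-0.54 to 0.49), 0.01 for Mir3102 (-0.48 to 0.51), -0.23 for Mir877 (-0.91 to 0.44) and -0.60 for Mir702 (-1.71 to 0.51). The intervals bound changes of Mir320 most closely and those of Mir702 least. As a share of raw counts, Mir320 had 0.0860%, 0.0783%, 0.0787%, 0.0635% and 0.0849% in primed EVs, against 0.0888%, 0.106%, 0.0981%, 0.0907% and 0.0960% in naive EVs. On this scale the groups did not overlap, and with library totals alone the log2 fold change was -0.29 (adjusted p = 0.517), beside a median of -0.25 over all loci. The share of all loci that part on this scale was not counted, as the 2.45% above is for TMM-scaled CPM. The lack of overlap is therefore not read as a result about Mir320. No pair among the 10 parted primed from naive EVs, against 2.93% of all pairs of loci.

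In primed against naive ASC none of the 5 was called by edgeR, against 10.2% of all loci (13 higher and 12 lower, but 18 and 5 with RLE and 17 and 2 with TMMwsp factors), and none parted the groups without overlap, against 11.4%. Mir3102 alone had an unadjusted p under 0.05. It averaged 501 ± 70.7 CPM in primed ASC and 746 ± 232 CPM in naive ASC (SD, n = 4 each), at a log2 fold change of -0.57 (95% interval -1.11 to -0.04, adjusted p = 0.181). Primed ASC 2, at 606 CPM, lay above naive ASC 3 and 4. Mir320 averaged 2505 ± 801 CPM in primed ASC and 1871 ± 392 CPM in naive ASC, at 0.42 (95% interval -0.02 to 0.86, adjusted p = 0.235). DESeq2 called Mir320 here, at 0.57 (adjusted p = 0.046), and removal of the GC trend called Mir3102, at -0.79 (adjusted p = 0.0393). The log2 fold changes were 0.21 for Mir484 (95% interval -0.37 to 0.79), -0.19 for Mir702 (-1.36 to 0.98) and -0.01 for Mir877 (-0.76 to 0.74). Within libraries, the log2 ratio of Mir320 to Mir3102 was 2.28 ± 0.56 in primed ASC and 1.36 ± 0.24 in naive ASC, and this was the 1 pair of 10 without overlap, against 12.0% of all pairs.

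The interaction, the priming difference in EVs minus that in ASC, was called at none of the 5 loci and at 0.0% of all loci by edgeR, with 26 of 245 loci but none of the 5 at an unadjusted p under 0.05. DESeq2 called 3 loci and limma-voom 0, none of them among the 5. At an unadjusted p under 0.05 DESeq2 had 36 loci, 1 of the 5 among them, and limma-voom had 29, with none of the 5. Mir3102 was at 0.58 (95% interval -0.15 to 1.31) and Mir320 at -0.42 (-1.01 to 0.17). Thus the EV to ASC differences of Mir3102, -2.64 in the primed and -3.22 in the naive pair, were not shown to differ.

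By profile, each locus was set beside the 3 tested loci most like it over the 18 libraries, measured by the root mean square (RMS) difference of centred log2 CPM among 239 loci. Mir3102 was nearest to Mir667, at an RMS of 0.42, and to Mir145a and Mir3072, at 0.47 and 0.49, where the median locus was at 1.56. Their log2 fold changes were -2.60, -2.02 and -4.15 in the primed pair and -2.50, -2.79 and -4.01 in the naive pair. They were chosen by profile over these same libraries, so a fall in EVs like that of Mir3102 follows from the choice. Mir320 was nearest to Mir151 (RMS 0.26), Mirlet7b (0.29) and Mir676 (0.32), with a median of 0.92. Mir484 was nearest to Mir425, Mir222 and Mir29a (0.36 each; median 0.89). Mir877 and Mir702 had Mir615 in common among their 3, at 0.44 and 0.66; the others were Mir744 and Mir3057 for Mir877 (0.43 and 0.44) and Gm24321 and Mir6944 for Mir702 (0.70 and 0.74). Among the 5 themselves, Mir320 and Mir877 were the most alike pair, at 0.43, and Mir484 and Mir3102 the least, at 1.44. By this measure Mir877 was closer to the capped Mir320 than to the mirtrons Mir702 (0.85) and Mir3102 (1.00). Counting noise is part of these distances, most of all for Mir702, which had 5 counts in its lowest library.

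Other loci outside the usual route were read from a list of 7. Of these, 5 had a row in the files and 3 were tested; Mir1224 had 0 counts and Mir1982 had 24 counts over all libraries, and Mir1839 and Mir664 were not analysed here. Of the 3 tested, 2 were higher and 1 lower in primed EVs than in primed ASC, and 1 was higher and 1 lower in naive EVs than in naive ASC. Mir1981, also a mirtron, was lower in EVs in both pairs. It averaged 56.5 ± 11.1 CPM in primed EVs and 136 ± 25.0 CPM in primed ASC, at -1.28 on the log2 scale (adjusted p = 0.000132), and 50.5 ± 12.4 CPM in naive EVs and 150.2 ± 25.8 CPM in naive ASC, at -1.56 (adjusted p = 1.51e-05). Mir451a, whose hairpin is cut by AGO2 in place of Dicer and which is also on the blood and red cell list, was higher in EVs, at 4.58 in the primed pair (adjusted p = 3.82e-06) and 6.45 in the naive pair (adjusted p = 1.59e-07). Mir1983, a hairpin within a tRNA gene, averaged 130.1 ± 36.9 CPM in primed EVs and 48.1 ± 32.3 CPM in primed ASC, at 1.34 (adjusted p = 0.00336). It had 127 ± 42.6 CPM in naive EVs and 141 ± 13.6 CPM in naive ASC, at -0.15 (adjusted p = 0.71).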

How the data were processed

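Counts per hairpin locus were deposited by the authors as 1 file per library, without normalization. Per the file headers, reads were counted unstranded with featureCounts 1.5.3 on miRNA genes from Ensembl release 76. Per the submitters' processing notes, bcl2fastq, STAR 2.0.4, Subread and featureCounts 1.45 were used on GRCm38, so the versions differ between header and notes. How reads were trimmed and mapped was not given in the sources used here. Names and places are from GENCODE, and sequences from RefSeq. Every ASC library is also labelled as EV miRNA under molecule subtype; groups follow the source names.

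Loci were kept with filterByExpr (245 of 2009, with 99.9573% of counts), scaled by TMM and tested with edgeR 4.0.16 in 1 quasi-likelihood fit of 4 group means over 18 libraries with Benjamini-Hochberg adjustment across all 245 (threshold 0.05). SE was taken as |log2 fold change|/√F. Intervals are 95%, from the t distribution of the fit. In the alternative that removes the trend on hairpin GC content, loci without a sequence took the mean GC. Other alternatives used DESeq2 1.42.0 and limma 3.58.1. Hairpins were folded with RNAfold 2.7.2. Named loci are the 5 members, a list of 7 other non-canonical loci and the 3 loci nearest each member among those with at least 10 CPM in their highest group. The members and lists were chosen with earlier results of these data known. Libraries held 180812 to 3052942 counts, and reads were counted without molecular identifiers, so counting error understates the error of low loci such as Mir702. No 2 libraries were identical.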

Additional observations from a re-analysis of the deposited data

Results flagged for a closer look

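In 20 sets of libraries (5 loci in 4 groups) the highest or lowest library was compared with the others of its group, and 5 sets had a library far from the rest. For independent sets of normally spread values, chance alone flags about 1 in 20 groups. Here the CPM were not log scaled and the 5 loci share their libraries, so that rate need not hold. Mir702 had 227 CPM in primed ASC 2, against 33.2 to 59.6 CPM in the other primed ASC libraries. Mir3102 had 606 CPM in the same library, against 456 to 481 CPM in the other primed ASC libraries. Mir877 had 206 CPM in primed EV 5, against 69.3 to 95.8 CPM in the other primed EVs, and 368 CPM in naive ASC 5, against 209 to 228 CPM in the other naive ASC. Mir484 had 634 CPM in primed EV 4, against 432 to 468 CPM in the other primed EVs. In each of the 5 sets the distant library was the highest one.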

How the results depend on the processing

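Of the 5 loci, the count called lower in naive EVs was 1 with the GC trend removed and 2 with the GC trend removed and a replicate block by title number, against 4; leaving out 1 library each gave 2 (without naive ASC 5) to 4. For primed EVs against primed ASC it was 2 with the GC trend removed and 3 with the block added. Mir702, not called in either pair with the GC trend removed, was called with the block added, at -1.003 (adjusted p = 0.0364) in the primed and -1.39 (adjusted p = 0.00271) in the naive pair. For primed against naive ASC the count called in either direction was 1 with DESeq2, with the GC trend removed, and with the GC trend removed and the block, against 0. The locus called was Mir320, higher, with DESeq2, and Mir3102, lower, with the GC trend removed, with or without the block. The cause was not tested. Mir877 was not called after thinning to 180812 counts, at -1.26 (adjusted p = 0.0506) in the primed and -0.80 (adjusted p = 0.225) in the naive pair, where only 195 loci were tested. Replicate numbers were not taken to pair the samples, since the labels do not say that they mark a shared animal or day. The numbers in titles and source names also differ at some libraries. Primed EV 1 has the number 5 in its title, as primed EV 5 has, while naive EV 1 and naive ASC 1 have 1+2. Whether equal numbers mark a shared source was not tested. Differently numbered pairs ran from r = -0.61 (primed EV 2 with naive EV 4) to 0.66 (primed EV 2 with naive EV 1). Most same-numbered pairs, but not all, correlated above 0.1. By source name number 3 of 4 pairs did between primed EVs and primed ASC (r from 0.076 to 0.39), 3 of 4 between naive EVs and naive ASC (-0.16 to 0.42), 4 of 5 between primed and naive EVs (0.046 to 0.52) and 2 of 3 between primed and naive ASC (0.046 to 0.32). With a block by source name number, the SE of Mir702 in the naive EV to ASC pair was 0.36, against 0.54 without a block. The replicate block left the counts of the 5 loci at 4 in both EV to ASC pairs and 0 in both priming comparisons with the number in the source name or in the title, and over all loci called 7 in primed against naive EVs by title number, against 2 without it. That count was 8 without a filter, 5 with DESeq2 and 0 thinned. In primed against naive ASC it was 40 with DESeq2, 10 thinned and 15 with only the 2 groups fitted, against 25. Leaving out 1 library each moved it between 6 and 33, and that of primed against naive EVs between 1 and 8. Thinned counts gave 106 in the primed and 94 in the naive EV to ASC pair, against 167 and 162.

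Signs turned at differences that were not called. For Mir484 in naive EVs against naive ASC these were 0.0125 with RLE factors, 0.0129 with DESeq2, 0.0944 with TMMwsp, 0.143 with the GC trend removed and 0.0850 with the block added (leave-one-out -0.16 to 0.10), and in the primed pair 0.0554 and 0.131 with the GC trend removed without and with the block. In primed against naive EVs Mir320 was at 0.0426 without a filter, 0.148 thinned, 0.0381 with the GC trend removed and 0.0210 with the block added (leave-one-out -0.10 to 0.13). Mir484 was at 0.0287, 0.298 and 0.0021 under the first 3 of these (leave-one-out -0.14 to 0.11). Mir3102 was at -0.0529 with RLE factors, -0.0530 with DESeq2, -0.106 with TMMwsp, -0.25 with library totals alone, -0.54 thinned and -0.0721 with only the 2 groups fitted (leave-one-out -0.10 to 0.22). In primed against naive ASC Mir484 was at -0.0581 with the GC trend removed and the block (leave-one-out -0.13 to 0.46), and Mir702 at 0.12 thinned (leave-one-out -1.14 to 0.19). Mir877 was at 0.15 with RLE factors, 0.0706 with TMMwsp, 0.149 with DESeq2, 0.28 thinned and 0.13 with only the 2 groups fitted (leave-one-out -0.15 to 0.30). In the interaction Mir484 was at 0.0458 with the GC trend removed and the block (leave-one-out -0.59 to 0.0047). Mir702 was at 0.15 and 0.12 with the replicate block by source or title number and 0.39 with the GC trend removed as well (leave-one-out -0.89 to 0.44), and Mir3102 at -0.0538 thinned. Mir3102 and Mir320 were called lower in primed EVs against primed ASC under the 12 settings and with each of the 18 libraries left out, and so was Mir3102 in the naive pair. Depth limits Mir702 most, with 5 counts in its lowest library.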
